A study of Mus musculus with 12 samples.

Results

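The major histocompatibility complex (MHC) genes and the genes of antigen processing were measured by RNA sequencing in mouse liver. The set held every gene whose symbol starts with H2- and B2m, Tap1, Tap2, Tapbp, Psmb8, Psmb9, Psmb10, Nlrc5, Ciita, Cd74, Erap1, Psme1 and Psme2. That rule used names and no measured value, and 54 of the 21004 genes in the table met it. Of these, 41 belonged to the class I pathway, 12 to the class II pathway, and H2-Ke6 encodes no MHC chain. The mice were ICR, an outbred strain, aged 8 weeks, and total RNA of their livers gave 12 libraries. There were 3 libraries each from mice given busulfan plus L.J. at 10 mg/kg, busulfan, L.J. at 10 mg/kg, and from controls. Busulfan is a DNA alkylating drug used to clear bone marrow. Its dose, route and timing, the meaning of the abbreviation L.J. and any vehicle of the controls are not stated by the labels. The series asked whether L.J. counters the effects of busulfan on the liver, and its design text also speaks of FMT without relating it to L.J.

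MHC class I molecules consist of a heavy chain, the light chain B2m and a short peptide, and show samples of a cell's own proteins to CD8 T cells. The peptides are cut by the proteasome, carried into the endoplasmic reticulum by the transporter Tap1-Tap2, trimmed by Erap1 and loaded with the help of tapasin, the product of Tapbp. MHC class II molecules show peptides from ingested material to CD4 T cells, and the invariant chain Cd74 occupies their groove until H2-DM helps to exchange it. Nearly all cells make class I molecules, the hepatocyte included, while in liver class II is known mainly from Kupffer cells, dendritic cells and B cells. In these bulk samples, fewer cells of a type and less RNA per cell cannot be told apart.

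The sequences before the transcription start are shown for 5 members: the light chain, a classical heavy chain, the peptide transporter, the non-classical chain H2-T23 and a class II chain whose level split the libraries. They are not the members with the smallest p in L.J. against control. They are the 250 bases before the start in RefSeq on GRCm38.p6, printed 5′ to 3′ on the strand of the gene. Capitals mark matches, on either strand, to 3 motifs: GAAA and GAAA parted by any 2 bases (the core of the interferon-stimulated response element, ISRE), CCAAT (the NF-Y box) and TGACG (the core of the CREB site). The B2m sequence lies at chr2:122147437-122147686 on the plus strand, that of H2-K1 at chr17:34000348-34000597 on the minus strand, that of Tap1 at chr17:34187306-34187555 on the plus strand, that of H2-T23 at chr17:36032702-36032951 on the minus strand and that of H2-Eb1 at chr17:34305617-34305866 on the plus strand.
B2m: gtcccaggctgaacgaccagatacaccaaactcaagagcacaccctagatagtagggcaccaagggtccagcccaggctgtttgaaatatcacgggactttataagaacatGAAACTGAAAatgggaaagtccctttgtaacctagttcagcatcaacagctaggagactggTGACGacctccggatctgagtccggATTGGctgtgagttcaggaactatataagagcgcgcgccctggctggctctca
H2-K1: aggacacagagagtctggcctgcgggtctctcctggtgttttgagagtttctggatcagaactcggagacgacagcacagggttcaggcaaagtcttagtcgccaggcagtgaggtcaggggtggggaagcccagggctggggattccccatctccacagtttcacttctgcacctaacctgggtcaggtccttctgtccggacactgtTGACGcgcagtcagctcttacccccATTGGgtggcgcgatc
Tap1: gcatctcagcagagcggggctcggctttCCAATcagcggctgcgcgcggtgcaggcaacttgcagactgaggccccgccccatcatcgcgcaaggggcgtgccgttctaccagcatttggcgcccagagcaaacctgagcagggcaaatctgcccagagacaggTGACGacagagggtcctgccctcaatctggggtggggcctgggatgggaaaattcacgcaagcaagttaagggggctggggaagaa
H2-T23: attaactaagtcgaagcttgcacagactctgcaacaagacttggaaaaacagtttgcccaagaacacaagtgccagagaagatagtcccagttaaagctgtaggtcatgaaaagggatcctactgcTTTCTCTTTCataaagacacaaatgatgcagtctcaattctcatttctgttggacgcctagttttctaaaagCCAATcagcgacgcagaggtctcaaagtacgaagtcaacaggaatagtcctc
H2-Eb1: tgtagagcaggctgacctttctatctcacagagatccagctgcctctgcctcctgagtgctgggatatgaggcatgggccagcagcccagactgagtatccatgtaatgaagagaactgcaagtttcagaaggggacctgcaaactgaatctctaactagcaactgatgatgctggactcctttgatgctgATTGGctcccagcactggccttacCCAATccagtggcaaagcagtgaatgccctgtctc
The B2m sequence holds an ISRE match that starts 139 bases before the start, and the H2-T23 sequence holds one that starts 124 bases before it. The Tap1 window overlaps the promoter of Psmb9, which runs the other way from a start 225 bases off. H2-K1 has a second start in RefSeq, and its window, chr17:34000334-34000583, was searched but is not shown. That window holds 2 CCAAT matches, and the printed one holds 1. Of the 54 members, 41 had a sequence among those searched. Cd74 was not among these 41, so its motifs are not known from this search. The counts describe the sequences searched and not every gene of the reference. A CCAAT match stood in 33 of these 41 members (80.5%), against 37.5% of the 27025 genes searched. Of the 26 members searched that also passed the expression filter given below, 20 had one. TGACG stood in 16 of 41 members (39.0%), against 19.8% of all genes searched. An exact match to the ISRE pattern stood in 3 of 41 members, B2m, H2-T23 and H2-T22 (7.32%), against 3.46% of all genes searched. A near match, such as tttcacttct in the H2-K1 window, was not counted or marked. Many H2 genes are close copies with similar upstream sequence, so the 41 members are not independent of each other. Matches describe these windows and no binding was measured.

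The values were FPKM, fragments scaled by transcript length and by the library's mapped fragments, given to 2 decimals and without counts, so the depth of the libraries is unknown. Hepatocyte markers such as Alb summed to between 27730 and 54310 FPKM in the 12 libraries. Tests were run on the 10786 genes that reached 1 FPKM in 3 libraries or more, 37 members among them: 28 of class I, 8 of class II and H2-Ke6. The other 17 members stayed below, 13 of class I at no more than 0.76 FPKM and 4 of class II at no more than 0.3 FPKM. L.J. replicates 1 and 3 stood apart in the major urinary protein (Mup) genes, secreted liver proteins, which took 1.37% and 0.0956% of all FPKM there and 11.7% to 36.7% in the other libraries. The median log2(FPKM + 1) of the genes tested ran from 2.76 in busulfan plus L.J. replicate 1 to 3.16 in L.J. replicate 1, so that values that take a library's median away (median scaling) are given where they matter. H2 heavy chain genes are close copies of each other, and ICR mice carry alleles that differ from the reference genome, so reads may have been shared or lost among them, and values of single H2 genes are uncertain to that extent. Whether this moved any result was not tested. The sources do not say that the replicates were separate mice, so how far a p-value here reflects spread between mice is not known.

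**Figure D1:**
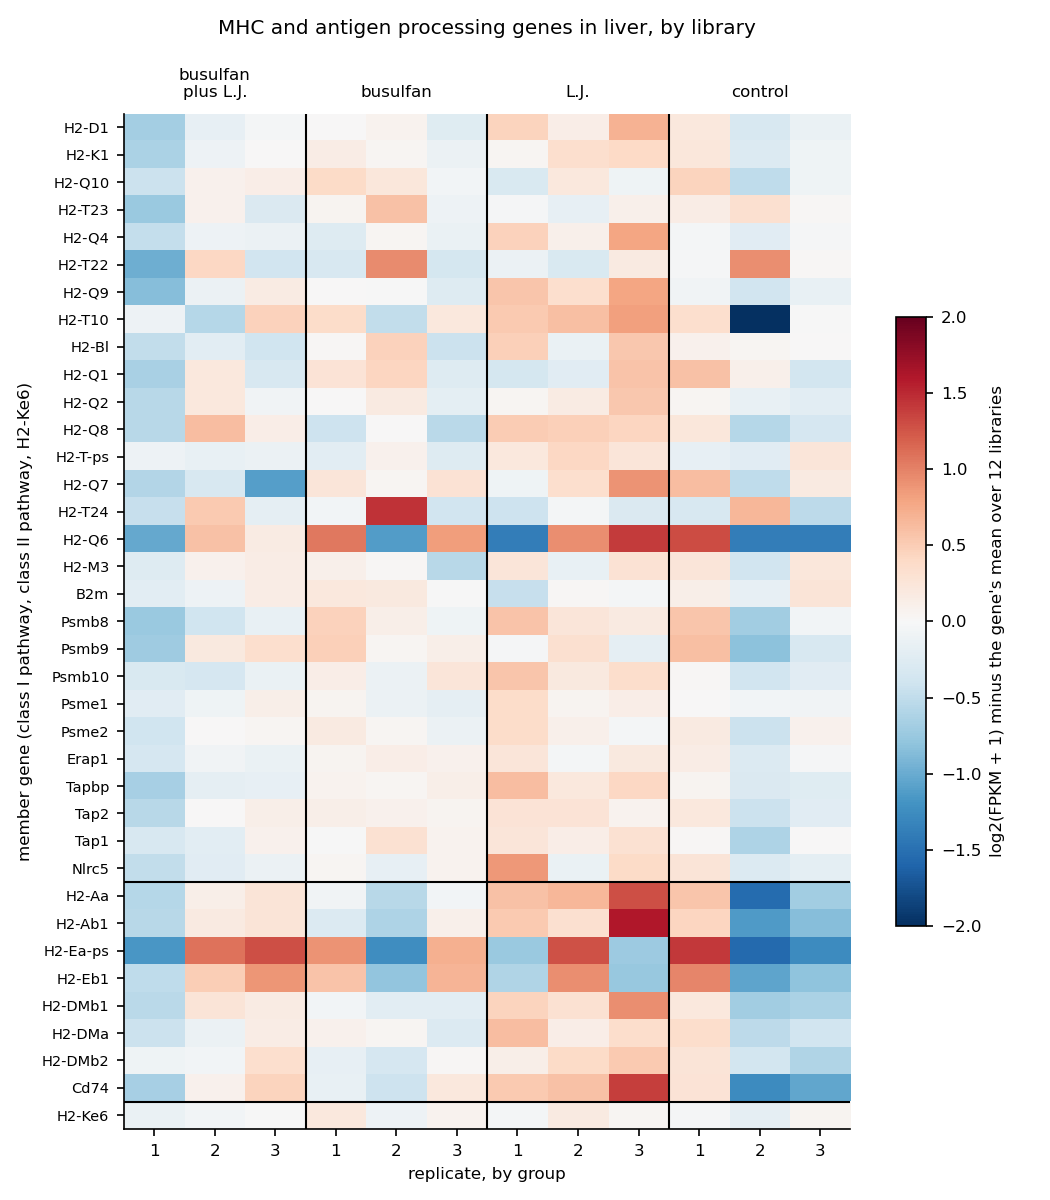
Level of each of the 37 members tested (rows) in each of the 12 libraries (columns, by group), as log2(FPKM + 1) minus the gene's mean over the 12 libraries. Lines part class I, class II and H2-Ke6. L.J. replicate 3 is the highest library for 15 members, busulfan plus L.J. replicate 1 is the lowest for 15, all of class I, and control replicate 2 is the lowest for 15. The median log2(FPKM + 1) of all genes tested is 3.10, 2.76 and 2.77 in these libraries, in that order. Over the 12 libraries its median is 2.95. How many of all genes have their extremes in these libraries was not counted.

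The most abundant class I transcripts in these livers were those of the light chain and 3 heavy chains. B2m, which every class I heavy chain needs for its fold, read 1765, 1910.2 and 2269 FPKM with busulfan plus L.J., 2359.9, 2340.1 and 2020.4 with busulfan, 1484, 2073 and 1994 with L.J. and 2212, 1827 and 2449 in controls. Its groups overlapped, and the highest library was only 1.65 times the lowest. H2-K1, a classical heavy chain that shows peptides to CD8 T cells, read 236, 341 and 368 FPKM with busulfan plus L.J., 403, 374 and 338 with busulfan, 377, 462 and 483 with L.J. and 426, 303 and 342 in controls. H2-D1, the other classical heavy chain of the table, read 266, 381 and 416 FPKM with busulfan plus L.J., 428, 447 and 359.8 with busulfan, 577, 467 and 690.5 with L.J. and 492, 342 and 388 in controls. Both had their lowest value in busulfan plus L.J. replicate 1 and their highest in L.J. replicate 3. The level of H2-K1 was 0.653 and 0.700 of that of H2-D1 in L.J. replicates 1 and 3, and between 0.837 and 0.990 of it in the remaining libraries. H2-Q10, a secreted class I chain made by the liver, read 327, 466 and 482 FPKM with busulfan plus L.J., 572, 513 and 423 with busulfan, 358, 510.1 and 416 with L.J. and 598, 310.0 and 414 in controls. It stood near H2-K1 and H2-D1 in level, and all 4 groups overlapped.

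Behind these came the other non-classical chains, most of them with a narrower or unknown range of ligands. H2-T23, or Qa-1, which the inhibitory NK receptor CD94/NKG2A reads, had 36.2, 64.8 and 49.8 FPKM with busulfan plus L.J., 63.3, 92.2 and 56.7 with busulfan, 60.2, 54.7 and 65.6 with L.J. and 68.1, 77 and 62.2 in controls. H2-Q4 had 36.8, 48.4 and 47.6 FPKM with busulfan plus L.J., 43.1, 53.3 and 46.9 with busulfan, 71.4, 55.6 and 89.9 with L.J. and 50.4, 44.2 and 50.8 in controls. The 3 L.J. libraries held the highest H2-Q4 values of the study, while H2-T23 was highest in busulfan replicate 2. H2-Q9, which encodes a Qa-2 antigen anchored to the membrane by lipid, had 6.61, 11.7 and 14.4 FPKM with busulfan plus L.J., 12.8, 12.7 and 10.5 with busulfan, 19.2, 16.3 and 22.7 with L.J. and 12.2, 9.56 and 11.4 in controls. H2-Q7, its close relative, had 1.65, 2.18 and 0.85 FPKM with busulfan plus L.J., 3.7, 3.1 and 3.83 with busulfan, 2.76, 4.01 and 6.37 with L.J. and 5.12, 1.8 and 3.49 in controls. H2-Q9 was higher in each L.J. library than in any other library, and H2-Q7 was lower in each busulfan plus L.J. library than in any busulfan or L.J. library. H2-T22, a ligand of gamma delta T cells, lay between 9.55 and 38.9 FPKM and was highest in busulfan replicate 2 and control replicate 2, at 38.9 and 38.8 FPKM. H2-T10, its relative and a transcribed pseudogene in RefSeq, read 1.34 FPKM in control replicate 2 and 5.99 to 17.4 FPKM elsewhere. H2-T24 read 7.59 FPKM in busulfan replicate 2, 3.98 in control replicate 2 and 3.56 in busulfan plus L.J. replicate 2, and at most 2.08 in the remaining libraries. H2-Q6 was listed at 0 in L.J. replicate 1 and in control replicates 2 and 3, and reached 5.93 FPKM in L.J. replicate 3. H2-M3, which presents formylated bacterial peptides, was the only one of the 12 H2-M genes to pass, with 1.26 FPKM at most, and H2-M1, H2-M9, H2-M11, H2-M10.4 and H2-M10.5 were listed at 0 in every library.

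The peptide supply was made up of moderately abundant genes. Psmb8, a catalytic subunit that turns the standard proteasome into the immunoproteasome, read 8.45, 11 and 13.1 FPKM with busulfan plus L.J., 20.8, 16 and 13.8 with busulfan, 22.3, 17.5 and 16.8 with L.J. and 22, 8.75 and 14.2 in controls. Psmb9, the second such subunit, read 7.11, 14.1 and 15.6 FPKM with busulfan plus L.J., 17.4, 12.5 and 13.3 with busulfan, 12, 15.5 and 10.6 with L.J. and 19, 6.51 and 9.57 in controls. Psmb10, the third, read 8.48, 8.28 and 9.66 FPKM with busulfan plus L.J., 11.9, 9.76 and 12.9 with busulfan, 16.2, 12.4 and 13.9 with L.J. and 10.9, 8.01 and 9.04 in controls. In Psmb10 the L.J. libraries did not overlap with the busulfan plus L.J. or the control libraries, while in Psmb9 all groups overlapped. The immunoproteasome subunits stayed below the standard subunits they replace: the level of Psmb8 was 0.213 to 0.515 of that of Psmb5, Psmb9 was 0.162 to 0.330 of Psmb6, and Psmb10 was 0.0641 to 0.168 of Psmb7. Psmb8 per Psmb5 was 0.213, 0.226 and 0.261 with busulfan plus L.J., 0.390, 0.337 and 0.353 with busulfan, 0.515, 0.425 and 0.492 with L.J. and 0.434, 0.259 and 0.332 in controls, so the busulfan plus L.J. libraries lay below every busulfan and L.J. library and overlapped with the controls. Psme1 and Psme2, the subunits of the proteasome activator PA28, lay between 59.6 and 90.5 and between 39.0 and 68.2 FPKM.

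Tapbp, tapasin, read 10.4, 15.1 and 15.2 FPKM with busulfan plus L.J., 18.1, 17.6 and 18.8 with busulfan, 27, 20.1 and 23.3 with L.J. and 17.9, 13.8 and 14.3 in controls. Tap1 read 4.39, 4.84 and 6.21 FPKM with busulfan plus L.J., 5.69, 7.34 and 6.12 with busulfan, 6.98, 6.43 and 7.31 with L.J. and 5.89, 3.4 and 5.76 in controls. Tapbp was lower in each busulfan plus L.J. library than in any busulfan library and higher in each L.J. library than in any other library, while Tap1 in L.J. and busulfan livers overlapped. Tap2 lay between 7.83 and 14.7 FPKM and the trimming enzyme Erap1 between 17.5 and 26.6 FPKM. Nlrc5, the transcriptional activator of class I genes, read 4.04 FPKM and 2.60 FPKM in replicates 1 and 3 of L.J. and between 0.96 and 2.29 in the other libraries.

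**Figure D2:**
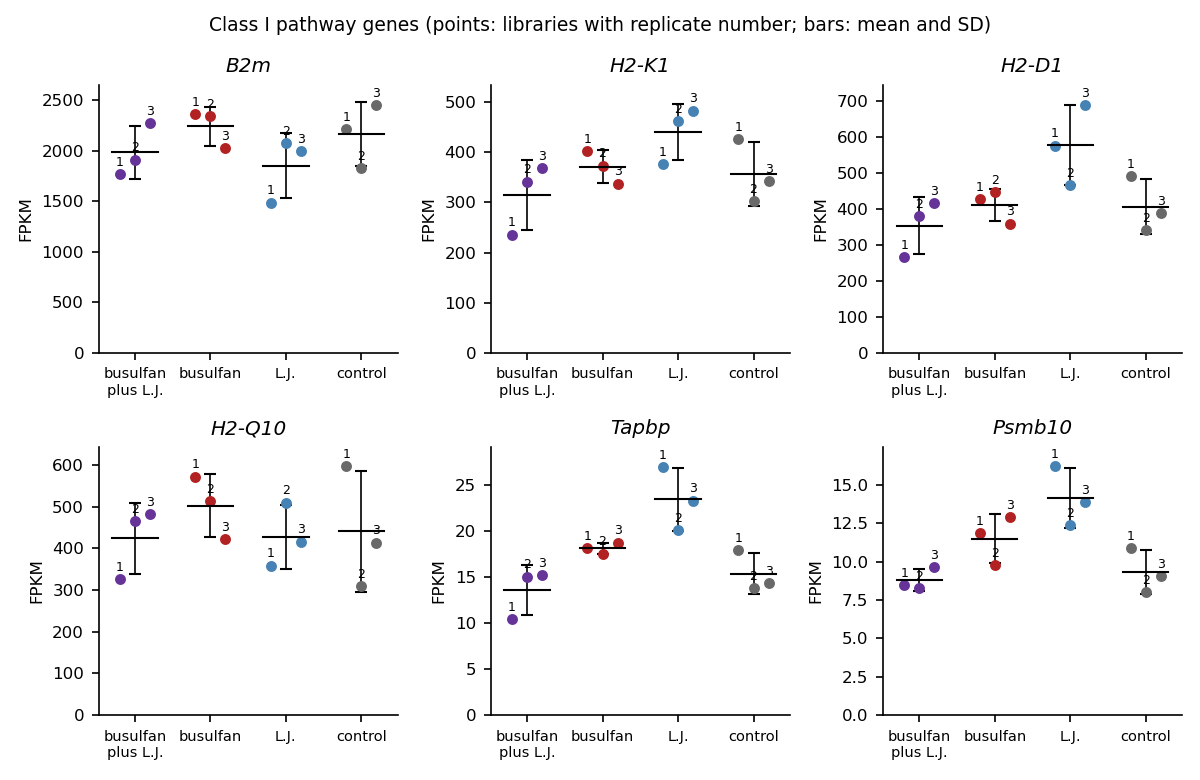
FPKM of 6 class I pathway genes in each library (points, with the replicate number), with the mean (wide line) and SD (bars) of 3 libraries per group. The means of Tapbp and Psmb10 are highest with L.J. and lowest with busulfan plus L.J., and B2m and H2-Q10 overlap in all 4 groups.

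The class II chains were less abundant per length than the classical class I chains, and the invariant chain stood above them. Cd74, the invariant chain, read 26.3, 44.7 and 58 FPKM with busulfan plus L.J., 38.1, 31.3 and 49 with busulfan, 60.8, 63.4 and 112 with L.J. and 51.3, 17.1 and 20 in controls. H2-Aa, the alpha chain of the A molecule, read 9.71, 16.3 and 18.1 FPKM with busulfan plus L.J., 14.2, 9.81 and 14.4 with busulfan, 22.9, 24.2 and 37.8 with L.J. and 22.5, 4.5 and 8.8 in controls. H2-Ab1, its beta chain, read 7.6, 13.2 and 14.1 FPKM with busulfan plus L.J., 9.47, 7.19 and 12.5 with busulfan, 17.2, 14.8 and 37.1 with L.J. and 16, 4.74 and 5.97 in controls. All 3 L.J. libraries lay above every other library in Cd74 and H2-Aa, and in H2-Ab1 control replicate 1 lay among them. The controls were spread widely: replicate 1 stood far above replicates 2 and 3 in these genes, and replicate 2 held the lowest value of 7 of the 8 class II members tested. The median log2(FPKM + 1) of all genes tested was also lower in control replicate 2, at 2.77, than in control replicate 1, at 2.97. H2-DMb1, a chain of the peptide exchange factor H2-DM, read 1.0, 2.45 and 2.24 FPKM with busulfan plus L.J., 1.78, 1.51 and 1.51 with busulfan, 2.95, 2.59 and 4.49 with L.J. and 2.34, 0.79 and 0.87 in controls. H2-DMa and H2-DMb2, the other H2-DM chains, lay between 0.68 and 2.70 and between 0.42 and 2.10 FPKM. H2-Oa and H2-Ob, the chains of the inhibitor of H2-DM, and Ciita, the master activator of class II genes, did not reach 1 FPKM in 3 libraries.

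The chains of the second class II molecule, E, took a different course. H2-Eb1, its beta chain, read 0.53, 2.06 and 2.97 FPKM with busulfan plus L.J., 2.2, 0.25 and 2.45 with busulfan, 0.42, 3.14 and 0.28 with L.J. and 3.25, 0.04 and 0.24 in controls. H2-Ea-ps, its alpha chain, annotated as a transcribed pseudogene in the reference, read 0.43, 5.8 and 6.83 FPKM with busulfan plus L.J., 5.0, 0.36 and 4.22 with busulfan, 0.92, 6.73 and 0.93 with L.J. and 7.58, 0.09 and 0.34 in controls. Each gene was high in the same 6 libraries and low in the other 6, with no values between 0.53 and 2.06 FPKM for H2-Eb1 or between 0.93 and 4.22 FPKM for H2-Ea-ps. The 6 high libraries were replicates 2 and 3 of busulfan plus L.J., 1 and 3 of busulfan, 2 of L.J. and 1 of the controls, so each group held both kinds. Both genes count among the 8 class II members tested. Their fold changes below depend on how many high libraries a group held, 2 of 3 in both busulfan groups and 1 of 3 in the others. The level of H2-Eb1 lay between 0.00755 and 0.232 of that of H2-Ab1 over the 12 libraries. H2-Aa and H2-Ab1 did not split in this way, as both were highest in L.J. replicate 3, where H2-Eb1 read 0.28 FPKM. Psmb9 also had its 6 highest values in these 6 libraries. Among all 10786 genes tested, 15 had the same 6 highest libraries as H2-Eb1, itself counted, and the members among them were H2-Eb1, H2-Ea-ps and Psmb9.

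**Figure D3:**
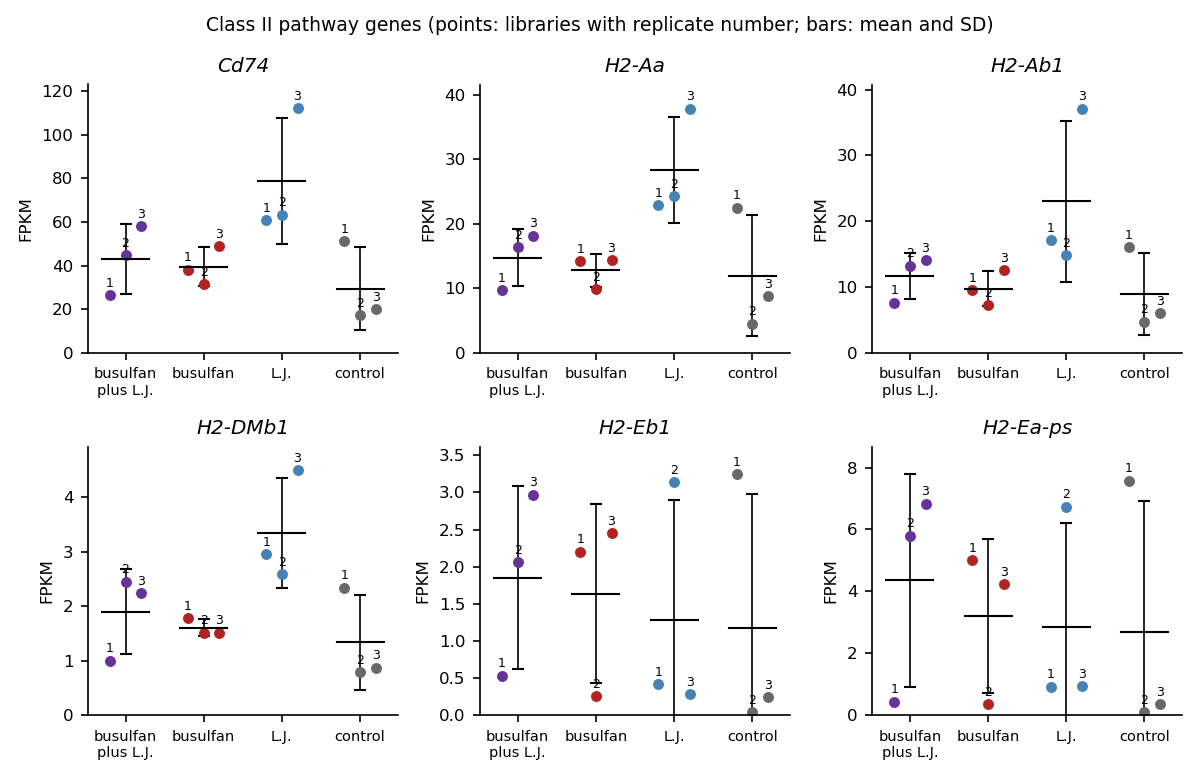
FPKM of 6 class II pathway genes in each library (points, with the replicate number), with the mean (wide line) and SD (bars, ending at 0 where they would go below) of 3 libraries per group. Cd74 and H2-Aa are higher in all 3 L.J. libraries than in any other, whereas H2-Eb1 and H2-Ea-ps are high in 6 libraries that are spread over all 4 groups.

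L.J. alone was compared with control to ask what it did without busulfan. Class II genes lay higher in fitted value with L.J., by a median of 0.76 on the log2 scale for the 8 tested, and class I genes by a median of 0.32 for the 28 tested, against 0.17 for all 10786 genes. In all, 31 of the 37 members lay higher (83.8%), against 77.1% of all genes. No member passed an adjusted p of 0.05 (limma, Benjamini-Hochberg over all genes tested), where 27 genes or 0.25% of all did, while 15 members, all higher with L.J., had an unadjusted p under 0.05. That is 40.5% of the 37, against 20.1% of all genes. Cd74 averaged 78.8 ± 28.9 FPKM with L.J. and 29.5 ± 19 FPKM in controls (SD, n = 3 each), a log2 fold change of 1.50 ± 0.40 (SE; limma, adjusted p = 0.0816). H2-Aa averaged 28.3 ± 8.26 FPKM with L.J. and 11.9 ± 9.37 FPKM in controls (SD, n = 3 each), a log2 fold change of 1.40 ± 0.43 (SE; limma, adjusted p = 0.102). H2-DMb1 averaged 3.34 ± 1.01 FPKM with L.J. and 1.33 ± 0.87 FPKM in controls (SD, n = 3 each), a log2 fold change of 0.93 ± 0.27 (SE; limma, adjusted p = 0.0926). These were the largest class II differences among the 6 members with the smallest p, and the SD of the L.J. libraries was wide in each. Psmb10 averaged 14.2 ± 1.95 FPKM with L.J. and 9.3 ± 1.44 FPKM in controls (SD, n = 3 each), a log2 fold change of 0.56 ± 0.14 (SE; limma, adjusted p = 0.0803). Tapbp averaged 23.5 ± 3.45 FPKM with L.J. and 15.4 ± 2.23 FPKM in controls (SD, n = 3 each), a log2 fold change of 0.58 ± 0.16 (SE; limma, adjusted p = 0.0877). H2-Q9 averaged 19.4 ± 3.21 FPKM with L.J. and 11 ± 1.34 FPKM in controls (SD, n = 3 each), a log2 fold change of 0.75 ± 0.22 (SE; limma, adjusted p = 0.0983). All of these 6 members had groups that did not overlap, which was so for 11 members in the higher direction (29.7%), against 17.9% of all genes, and for 0 in the lower, against 2.87%. The other 5 were Tap1, H2-Q4, Psme1, H2-Q8 and H2-T10. The 6 class I members below 0 were B2m, H2-Q10, H2-Q1, H2-T22, H2-T23 and H2-T24, with a log2 fold change of -0.23 ± 0.21 (SE; limma, adjusted p = 0.514) for B2m and -0.0045 for H2-Q10.

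Leaving out 1 library decided whether members passed in L.J. against control. L.J. replicate 2 was the library whose Mup share resembled the other groups. Without it, 8 of the 37 members were higher at an adjusted p under 0.05 in limma. These were H2-Q9, H2-DMb1, H2-Q4, Tapbp, Nlrc5, Cd74, H2-Ab1 and Psmb10. In that setting 1800 of all 10786 genes passed (16.7%), so members passed at a rate not far above that of all genes. Without control replicate 1, which held the highest control value of each class II gene named above, H2-DMb1, H2-Aa and Cd74 passed, while 0.649% of all genes did. The class II median was then 1.28. The 15 members at an unadjusted p under 0.05 were 8 without L.J. replicate 3, against 11.1% of all genes, and 8 without control replicate 2, against 13.9%. The 11 members whose groups did not overlap were 17 without L.J. replicate 2, against 42.1% of all genes, and 23 without control replicate 1, against 35.6%. They were 17 without L.J. replicates 1 and 3 together, which leaves L.J. replicate 2 alone, against 28.8%. After median scaling they were 8, against 7.54% of all genes, and without control replicate 2 they were 11, against 20.8%. Fewer libraries make it easier for any gene not to overlap. The class I median was 0.49 without control replicate 1 and 0.21 without control replicate 2. Without L.J. replicates 1 and 3 together, Cd74 was at 1.25 with adjusted p = 0.714 in limma, Tapbp at 0.38 and Psmb10 at 0.39, and 1 member was left at an unadjusted p under 0.05, against 4.90% of all genes. Median scaling shifted the median of all genes to -0.01. After it, the class medians were 0.57 and 0.14 and 9 members had an unadjusted p under 0.05, against 8.40% of all genes in the higher direction. Kupffer cell markers summed to 392, 177 and 328 FPKM with L.J. and 237, 116 and 144 FPKM in controls, and all 10 of them lay higher in fitted value. Dendritic cell markers summed to 2.99 to 3.89 FPKM with L.J. and 1.94 to 3.86 FPKM in controls, B cell markers to 2.32 to 3.93 and 1.90 to 2.50, and T and NK cell markers to 4.05 to 5.53 and 2.35 to 3.75. Neutrophil markers summed to 145.5, 14.9 and 80.5 FPKM with L.J. and 9.13 to 9.97 FPKM in controls. They did not rise alike: S100a9 read 60.7, 4.05 and 36.2 FPKM with L.J. and 1.32, 0.53 and 1.61 in controls. Ly6g read 10.3, 6.57 and 6.69 FPKM with L.J. and 6.81, 6.58 and 6.61 in controls. Sinusoidal endothelial markers summed to 110, 56.1 and 82.6 FPKM with L.J. and 81.6, 49.2 and 70.7 FPKM in controls, and 6 of 7 lay higher in fitted value. No marker was at 0 in every library, and the part of these cells in the MHC values was not tested.

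Busulfan plus L.J. was compared with busulfan to ask what L.J. did on top of the drug. Class I genes lay lower in fitted value with busulfan plus L.J. in 24 of the 28 tested, with a median of -0.26, against 0.00 for all genes, whereas 7 of 8 class II genes lay higher, with a median of 0.15. Members that lay higher came to 11 of 37 (29.7%), against 50.7% of all genes. No member and no gene passed an adjusted p of 0.05 (limma; 0% of all genes), and 4 members had an unadjusted p under 0.05, all lower, or 10.8% against 1.82% of all genes in that direction. H2-Q7 averaged 1.56 ± 0.67 FPKM with busulfan plus L.J. and 3.54 ± 0.39 FPKM with busulfan (SD, n = 3 each), a log2 fold change of -0.86 ± 0.30 (SE; limma, adjusted p = 0.9999). Tapbp averaged 13.6 ± 2.72 FPKM with busulfan plus L.J. and 18.2 ± 0.60 FPKM with busulfan (SD, n = 3 each), a log2 fold change of -0.41 ± 0.16 (SE; limma, adjusted p = 0.9999). Psmb10 averaged 8.81 ± 0.75 FPKM with busulfan plus L.J. and 11.5 ± 1.6 FPKM with busulfan (SD, n = 3 each), a log2 fold change of -0.35 ± 0.14 (SE; limma, adjusted p = 0.9999). The groups did not overlap for these 3 members, nor for Erap1 and Psmb8, or 5 members (13.5%), against 5% of all genes. After median scaling they were 8 members, against 7.38% of all genes. H2-T23, the other member under an unadjusted p of 0.05, had a log2 fold change of -0.49 ± 0.22 (SE; limma, adjusted p = 0.9999), and its groups overlapped. The 3 immunoproteasome subunits all lay lower, with Psmb8 at a log2 fold change of -0.59 ± 0.27 (SE; limma, adjusted p = 0.9999) and Psmb9 at a log2 fold change of -0.27 ± 0.34 (SE; limma, adjusted p = 0.9999). Cd74, at a log2 fold change of 0.07 ± 0.40 (SE; limma, adjusted p = 0.9999), and H2-Aa, at a log2 fold change of 0.16 ± 0.43 (SE; limma, adjusted p = 0.9999), differed by less than the spread between replicates.

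Single libraries moved these values. Without busulfan plus L.J. replicate 1 the class medians were -0.08 and 0.40 and 1 member was left lower at an unadjusted p under 0.05, against 0.862% of all genes, and 1 was left without busulfan replicate 1, against 1.27%. Non-overlapping members numbered 8 without busulfan plus L.J. replicate 2, against 9.70% of all genes, and 8 without busulfan replicate 2, against 7.58%. They numbered 9 without busulfan plus L.J. replicate 3, against 13.3%, and 12 without busulfan replicate 3, against 11.1%. The class II median was -0.07 without busulfan plus L.J. replicate 3, -0.02 without busulfan replicate 2 and 0.28 without busulfan replicate 3. Kupffer cell markers summed to 142, 252 and 340 FPKM with busulfan plus L.J. and 214, 247 and 161 FPKM with busulfan, so both groups overlapped. The pancreatic enzymes, from a tissue next to the liver, summed to 296.5 FPKM in busulfan plus L.J. replicate 2, 19.6 in replicate 1 and 0.71 in replicate 3, against at most 0.32 with busulfan. Their part in the MHC values was not tested.

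**Figure D4:**
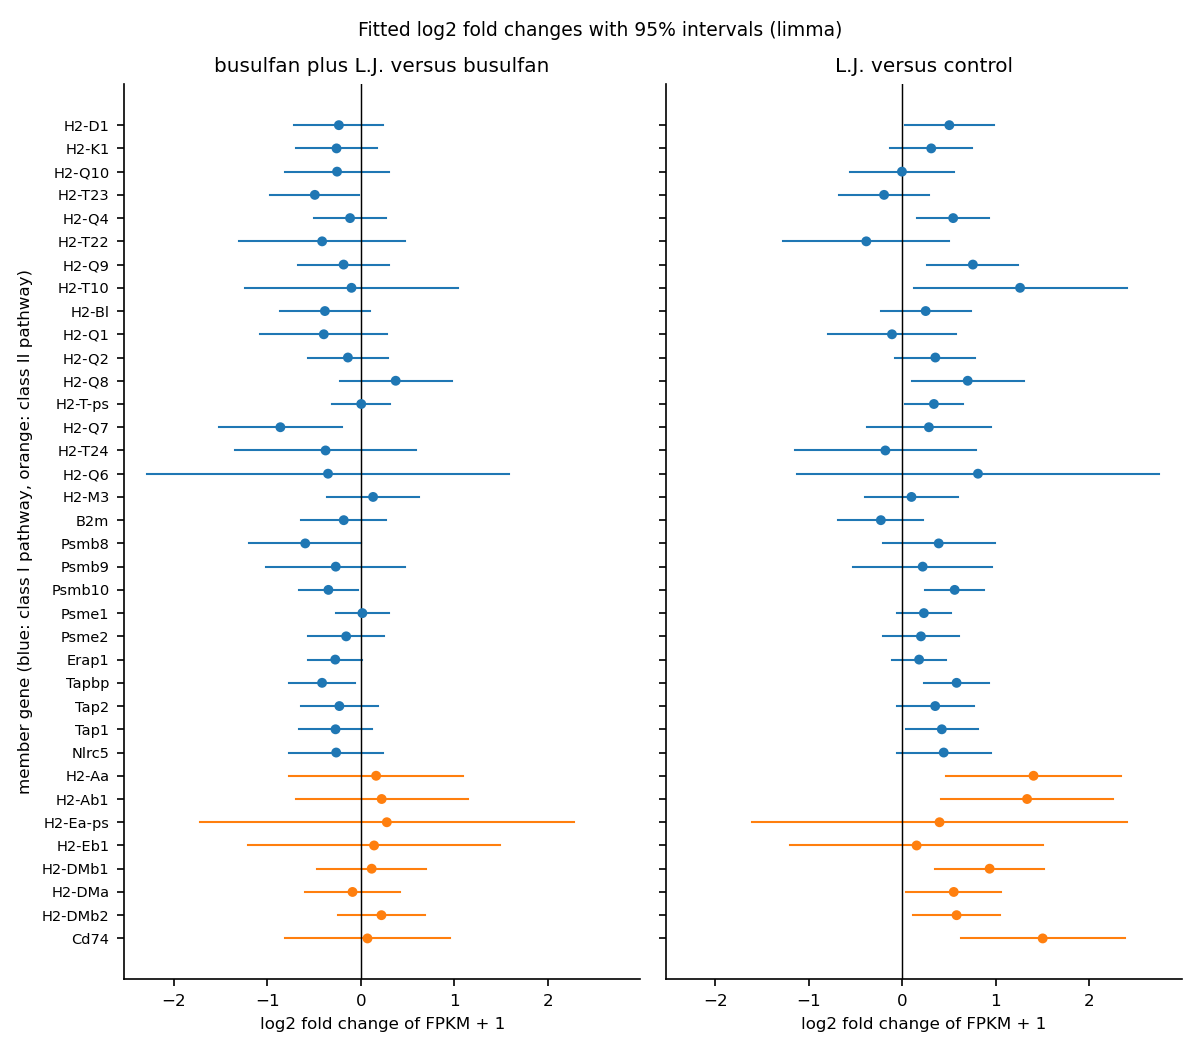
Fitted log2 fold changes of FPKM + 1 with 95% intervals (limma) for the 36 members tested of class I (blue) and class II (orange), for busulfan plus L.J. versus busulfan (left) and L.J. versus control (right). Values above 0 are higher in the group named first. On the left 24 of 28 class I members lie below 0, and on the right 22 of 28 class I and all 8 class II members lie above it.

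The interaction asked whether L.J. acted differently with and without busulfan, and is the L.J. difference in busulfan livers minus that in livers without it. It was below 0 for 26 of 28 class I members and all 8 class II members, with medians of -0.53 and -0.73, against -0.17 for all genes. It was above 0 for 2 of the 37 members (5.41%), against 22.4% of all genes. No member or gene passed an adjusted p of 0.05 (limma; 0% of all genes). An unadjusted p under 0.05 was found for 10 members, all below 0, or 27%, against 5.51% of all genes in that direction. The smallest p belonged to Psmb10, at a log2 fold change of -0.91 ± 0.20 (SE; limma, adjusted p = 0.709), and Tapbp, at a log2 fold change of -0.99 ± 0.23 (SE; limma, adjusted p = 0.709). H2-Q9 had a log2 fold change of -0.94 ± 0.32 (SE; limma, adjusted p = 0.709), Tap1 a log2 fold change of -0.69 ± 0.25 (SE; limma, adjusted p = 0.709) and H2-Q7 a log2 fold change of -1.14 ± 0.43 (SE; limma, adjusted p = 0.709). B2m and H2-M3 were the 2 class I members above 0, at 0.05 and 0.03. Without L.J. replicate 2, Tapbp and Psmb10 passed at adjusted p = 0.0316 and 0.0314 in limma, when 2.77% of all genes passed. The count of 10 became 20 without control replicate 1, against 8.80% of all genes, and 6 without L.J. replicate 3, against 2.91%. It became 5 without busulfan plus L.J. replicate 1, against 2.49%, 5 without control replicate 2, against 4.13%, and 3 without L.J. replicates 1 and 3 together, against 1.60%. After median scaling the class medians were -0.34 and -0.54, and 25 class I and 6 class II members lay below 0. All 10 Kupffer cell markers were below 0 as well, with a median of -0.57, as were all 4 neutrophil markers tested, with a median of -1.60. Sinusoidal endothelial markers were below 0 in 6 of 7, with a median of -0.39. The part of these cells in the MHC values was not tested.

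Busulfan plus L.J. was also set against L.J., to ask what the drug did in livers that had L.J. Members lay lower in fitted value in 26 of 28 of class I and 6 of 8 of class II, with medians of -0.39 and -0.55, against -0.13 for all genes. Only 4 of the 37 lay higher (10.8%), against 25.3% of all genes. No member passed an adjusted p of 0.05 in limma, against 3 genes or 0.0278% of all, and 13 members had an unadjusted p under 0.05, all lower, or 35.1%, against 10.7% of all genes. Tapbp averaged 13.6 ± 2.72 FPKM with busulfan plus L.J. and 23.5 ± 3.45 FPKM with L.J. (SD, n = 3 each), a log2 fold change of -0.76 ± 0.16 (SE; limma, adjusted p = 0.163). H2-D1 averaged 354 ± 78.2 FPKM with busulfan plus L.J. and 578 ± 112 FPKM with L.J. (SD, n = 3 each), a log2 fold change of -0.71 ± 0.22 (SE; limma, adjusted p = 0.231). H2-Q4 averaged 44.2 ± 6.44 FPKM with busulfan plus L.J. and 72.3 ± 17.2 FPKM with L.J. (SD, n = 3 each), a log2 fold change of -0.68 ± 0.18 (SE; limma, adjusted p = 0.19). The groups did not overlap for 17 members, all lower with busulfan plus L.J., or 45.9%, against 9.99% of all genes. These 17 included H2-K1, Erap1, Tap1, Psmb8 and Psmb10 of class I and Cd74, H2-Aa, H2-Ab1 and H2-DMb1 of class II. After median scaling 15 did not overlap, against 7.46% of all genes. The exceptions in sign were B2m, at a log2 fold change of 0.11 ± 0.21 (SE; limma, adjusted p = 0.82), H2-T24, and both E chains, H2-Eb1 and H2-Ea-ps. Without L.J. replicate 2, 7 of the 37 members were lower at an adjusted p under 0.05 in limma, when 10.8% of all genes passed. These were H2-Q9, H2-Bl, H2-Q4, Tapbp, Nlrc5, Psmb10 and H2-D1. Without busulfan plus L.J. replicate 1 the class medians were -0.21 and -0.35 and 8 members had an unadjusted p under 0.05, against 4.35% of all genes. Without L.J. replicates 1 and 3 together 4 members had one, against 1.62% of all genes. After median scaling the class medians were -0.26 and -0.41, against 0.01 for all genes. Of the Kupffer cell markers 9 of 10 lay lower in fitted value with busulfan plus L.J., with a median of -0.25, and of the neutrophil markers all 4 tested, with a median of -1.63 and 3 at an unadjusted p under 0.05. Of the sinusoidal endothelial markers 4 of 7 lay lower, with a median of -0.08. Their part in the MHC values was not tested.

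Busulfan was compared with control to ask what the drug did alone. Class I had a median of 0.09 and class II of 0.29, against 0.04 for all genes, and 30 of 37 lay higher with busulfan, against 64.1% of all genes. No member or gene passed an adjusted p of 0.05 (limma; 0% of all genes), no member had an unadjusted p under 0.05, against 1.29% of all genes in either direction, and no member's groups failed to overlap, against 4.56% of all genes higher and 1.36% lower. The smallest p among members was that of Psmb10, with a log2 fold change of 0.28 ± 0.14 (SE; limma, adjusted p = 1) and means of 11.5 ± 1.60 FPKM with busulfan and 9.30 ± 1.44 FPKM in controls (SD, n = 3 each). Tapbp had a log2 fold change of 0.24 ± 0.16 (SE; limma, adjusted p = 1), Tap1 a log2 fold change of 0.32 ± 0.18 (SE; limma, adjusted p = 1) and Cd74 a log2 fold change of 0.56 ± 0.40 (SE; limma, adjusted p = 1). The 95% interval of B2m ran from -0.40 to 0.51, that of H2-K1 from -0.37 to 0.50 and that of Cd74 from -0.32 to 1.43, so differences within these bounds could not be told from the spread between replicates. The controls' own spread set the class II value, which was 0.81 without control replicate 1 and 0.03 without control replicate 2. Without control replicate 1, 7 members lay higher at an unadjusted p under 0.05, against 2.92% of all genes. The class I median was 0.21 without control replicate 1 and -0.01 without control replicate 2. All 10 Kupffer cell markers lay higher in fitted value with busulfan, with a median of 0.30, and their part in the MHC values was not tested.

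Both treatments together were set against control to ask how livers given both differed from controls. Class I genes had a median of -0.07 and lay lower with busulfan plus L.J. in 21 of 28, and all 8 class II genes lay higher, with a median of 0.49, against 0.04 for all genes. These 8 include H2-Eb1 and H2-Ea-ps, which were high in 2 of 3 libraries with busulfan plus L.J. and 1 of 3 controls. Members that lay higher came to 15 of 37 (40.5%), against 59.4% of all genes. No member or gene passed an adjusted p of 0.05 (limma; 0% of all genes), and 2 members, H2-Q7 and H2-T23, had an unadjusted p under 0.05, both lower, or 5.41%, against 1.76% of all genes in that direction. H2-Q7 had a log2 fold change of -0.77 ± 0.30 (SE; limma, adjusted p = 0.676) and H2-T23 a log2 fold change of -0.48 ± 0.22 (SE; limma, adjusted p = 0.715). Only H2-Bl had groups that did not overlap, lower with busulfan plus L.J. (1 of 37 or 2.7%, against 3.76% of all genes), at 6.05, 7.50 and 6.53 FPKM with busulfan plus L.J. and 9.49, 9.19 and 8.96 FPKM in controls, and 7 members did after median scaling, against 8.92% of all genes. Without control replicate 2 there were 7 as well, against 10% of all genes, and without busulfan plus L.J. replicate 2 there were 4, against 7.28%. Without busulfan plus L.J. replicate 3 there were 2, against 8.72%, and without control replicate 3 there were 2, against 5.26%. The unadjusted count in the lower direction, beside 0.909% to 2% of all genes over these settings, was 0 without control replicate 1, control replicate 3 or busulfan plus L.J. replicate 3, 1 without busulfan plus L.J. replicate 1, busulfan replicate 1, L.J. replicate 1 or L.J. replicate 3, and 3 without busulfan plus L.J. replicate 2 or busulfan replicate 3. The class I median was -0.24 without control replicate 2, -0.0035 without busulfan plus L.J. replicate 1 and -0.11 after median scaling. The class II median was 1.01 without control replicate 1 and 0.19 without control replicate 2. All 10 Kupffer cell markers also lay higher in fitted value with busulfan plus L.J., with a median of 0.49, and their part in the MHC values was not tested. The 5 comparisons between groups share libraries, so they are not independent of each other.

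**Figure D5:**
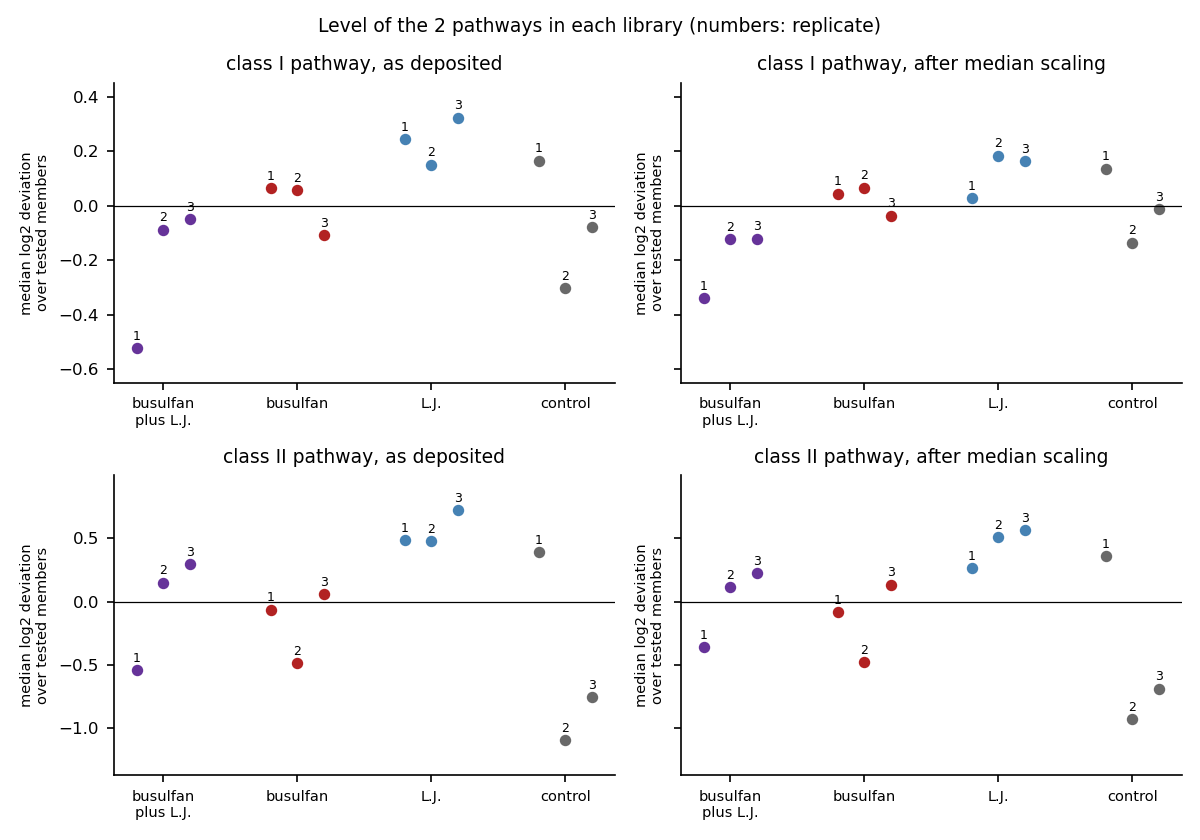
Level of each pathway in each library, as the median over the tested members (28 of class I, 8 of class II) of log2(FPKM + 1) minus the gene's mean over the 12 libraries, as deposited (left) and after median scaling (right). As deposited, class I lies between 0.15 and 0.32 in the 3 L.J. libraries and between -0.52 and -0.05 in the 3 busulfan plus L.J. libraries, and class II lies between 0.48 and 0.73 in the L.J. libraries and between -1.10 and 0.39 in the controls.

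The other genes of the pathway were read from a list of 41, of which Ifng, Socs1 and Marchf1 stayed below the filter. None of the 38 tested passed an adjusted p of 0.05 in limma in any of the 6 comparisons, and in L.J. versus control 30 lay higher (78.9%), against 77.1% of all genes, and 6 of them had an unadjusted p under 0.05 (15.8%), against 20.1%. The interferon gamma transcript itself was listed between 0 and 0.1 FPKM in every library. Irf1, a transcription factor that interferon gamma induces, read 10.7, 15.7 and 16.6 FPKM with busulfan plus L.J., 12, 11.7 and 11.3 with busulfan, 16.4, 13.1 and 15.1 with L.J. and 14.1, 7.5 and 11.7 in controls. Its groups overlapped, except that it was higher in each L.J. library than in any busulfan library. Calr, the chaperone calreticulin of the loading complex, read 773, 812 and 1029.5 FPKM with busulfan plus L.J., 551, 726 and 622 with busulfan, 993, 969 and 936 with L.J. and 569, 611 and 612 in controls. Pdia3, its partner in that complex, read 206, 218 and 282 FPKM with busulfan plus L.J., 171, 212 and 186 with busulfan, 269.6, 248 and 270.1 with L.J. and 191, 146 and 176 in controls. Both were higher in each L.J. library than in any control library, with a log2 fold change of 0.69 ± 0.17 (SE; limma, adjusted p = 0.069) for Calr and a log2 fold change of 0.62 ± 0.16 (SE; limma, adjusted p = 0.0803) for Pdia3, so neither passed. These 2 genes were chosen after their values were seen. In Calr the busulfan plus L.J. libraries also lay above every busulfan library, with a log2 fold change of 0.46 ± 0.17 (SE; limma, adjusted p = 0.9999). The standard proteasome subunits that the immunoproteasome subunits replace lay between 34.1 and 43.4 FPKM for Psmb5 with L.J. and 33.8 and 50.8 FPKM in controls, and Psmb6 and Psmb7 overlapped likewise.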

How the data were processed

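Total RNA of mouse liver had been sequenced in 12 libraries, 3 in each of 4 groups, and titles and descriptions in the labels gave the groups. The values, deposited by the authors as FPKM, covered 21004 genes, and per the submitters' processing notes Bowtie 0.12.2 and mm10 were used. No label names the quantifier or the annotation. FPKM are relative to each library's total, so abundant genes that differ, such as the Mup genes, move all others, and without counts no interval for counting error can be given.

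Genes at 1 FPKM or more in at least 3 libraries (10786) were fitted on log2(FPKM + 1), with 1 mean per group (4) and the 12 libraries together, in limma 3.58.1 (R 4.3.3; eBayes with trend, two-sided). A fold change on this scale understates that of low genes. P-values were adjusted by Benjamini-Hochberg over all genes tested within each of 6 comparisons, at a threshold of 0.05. An exact permutation test of 3 against 3 libraries cannot give a two-sided p below 0.1, so none is given. Script and settings were tested on simulated data. Symbols stored as dates (26) were restored by gene ID. Positions, biotypes and promoter sequences came from RefSeq on GRCm38.p6.

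Every member may be named, and the 6 members with the smallest p in a comparison were followed through the alternatives. The members, the pathway list and the cell type markers were chosen with earlier results of these data known. The same replicate numbers of busulfan and control deviated together from their group means (correlations of 0.399, 0.157 and 0.110), a pairing that comes from the data, while other pairs of groups did not do so at every number. Alternatives were a pseudocount of 0.1, no filter, a filter at 5 FPKM, median scaling, a fit of the compared groups alone, a block by replicate number, leaving out each library, and leaving out L.J. replicates 1 and 3.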

Additional observations from a re-analysis of the deposited data

Results flagged for a closer look

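The level of the class I pathway in a library, taken as the median over the 28 class I members tested of log2(FPKM + 1) minus the gene's mean, moved in opposite ways with L.J. on the 2 backgrounds. With busulfan plus L.J. it was -0.52, -0.09 and -0.05, all below the mean of the busulfan libraries (0.06, 0.06 and -0.11). With L.J. alone it was 0.24, 0.15 and 0.32, all above the mean of the controls (0.16, -0.30 and -0.08). The difference between these effects was -0.54, and it was not tested for this level. After median scaling it was -0.34, -0.12 and -0.12 with busulfan plus L.J., 0.04, 0.07 and -0.04 with busulfan, 0.03, 0.18 and 0.16 with L.J. and 0.14, -0.14 and -0.01 in controls.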

How the results depend on the processing

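Class medians were classed as moved if they changed by more than the spread between libraries. Counts of genes or members were judged by their factor of change, or by a change from or to 0. Single-gene values were judged by direction and side of the threshold. Of 1124 values recomputed under other settings, 1050 stayed within these limits and 58 were classed as moved. Another 15 single-gene values passed the threshold when they had not, and 1 single-gene value changed sign. It was H2-T10 in busulfan against control, with a log2 fold change of -0.14 if control replicate 2 is left out and 1.11 if it is control replicate 1, and its cause was not tested, nor was that of the values below. Of the values that moved by less than the spread, 3 class medians close to 0 also changed sign: class I in busulfan against control (-0.014 without control replicate 2) and class II in busulfan plus L.J. against busulfan (-0.074 without busulfan plus L.J. replicate 3 and -0.022 without busulfan replicate 2). No member passed an adjusted p of 0.05 (limma) with any pseudocount, filter or scaling tried, with the compared groups alone or with the replicate block.

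With the compared groups alone, genes that passed numbered 1 in busulfan against control, 0 in L.J. against control and 3 in busulfan plus L.J. against control. With no filter they numbered 11 in L.J. against control, 1 in busulfan plus L.J. against busulfan and 1 in busulfan plus L.J. against control, and the class II median of the interaction was -0.24, as low genes entered it. After median scaling they numbered 70 in L.J. against control and 1 in busulfan plus L.J. against L.J. Members without overlap were then 8 in busulfan plus L.J. against busulfan (7.38% of all genes) and 7 in busulfan plus L.J. against control (8.92% of all genes). The class II median in L.J. against control was 1.27 with a pseudocount of 0.1 and 1.37 with the filter at 5 FPKM. Without L.J. replicates 1 and 3, which leaves L.J. replicate 2 alone, 17 members did not overlap in L.J. against control, against 28.8% of all genes. The replicate number as a block left 1 gene in busulfan plus L.J. against L.J., where 3 passed without it, and changed no other count of calls by over 1.5 times.

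Leaving out 1 library at a time, genes that passed ranged from 0 to 1 in busulfan against control, 1 to 1800 in L.J. against control, 0 to 1164 in busulfan plus L.J. against L.J., 0 to 6 in busulfan plus L.J. against control and 0 to 299 in the interaction. Members that passed ranged from 0 to 8 in L.J. against control, 0 to 7 in busulfan plus L.J. against L.J. and 0 to 2 in the interaction, each highest without L.J. replicate 2. The class II median ranged from 0.028 to 0.81 in busulfan against control, 0.63 to 1.28 in L.J. against control and 0.19 to 1.01 in busulfan plus L.J. against control, and the class I median from -0.52 to -0.21 in busulfan plus L.J. against L.J. Members without overlap ranged from 11 to 23 in L.J. against control (20.8% and 35.6% of all genes at these ends), 5 to 12 in busulfan plus L.J. against busulfan (5.33% or 8.20%, and 11.1%), 17 to 23 in busulfan plus L.J. against L.J. (10.5% and 21.7%) and 1 to 7 in busulfan plus L.J. against control (4.10% or 6.95%, and 10%). Counts of members without overlap or at an unadjusted p under 0.05 were recomputed under these settings after seeing the data. Without counts the depth behind these values is unknown.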

Other observations

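H2-Ke6, which lies in the MHC region but encodes a steroid dehydrogenase, was the steadiest member tested. It read 44.3, 46.9 and 48.1 FPKM with busulfan plus L.J., 56.6, 45.1 and 51.2 with busulfan, 47.2, 55.0 and 49.7 with L.J. and 47.8, 42.9 and 50.3 in controls, so its highest library was 1.32 times its lowest. In all, 8 members had a highest library under 2 times the lowest, 7 of them of class I and 0 of class II. At the other end, the highest library was 81.3 times the lowest for H2-Eb1 and 84.2 times for H2-Ea-ps.

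The members together made up 0.448% to 0.846% of all FPKM of a library. The share was 0.448%, 0.637% and 0.694% with busulfan plus L.J., 0.732%, 0.720% and 0.585% with busulfan, 0.674%, 0.676% and 0.846% with L.J. and 0.772%, 0.491% and 0.648% in controls, so all groups overlapped.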
